A study of Bos taurus with 20 samples.

Results

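GPNMB, CD68, ATP6V0D2, ACP5 and MITF were grouped under the name phagocyte lysosome genes, with MITF included as a transcription factor. That name is a label and not a result of these data. The genes are described here in the bovine endometrium, the inner lining of the uterus, early and late after parturition. They are 5 of 19442 genes measured. They were taken as the probes that a commercial bovine array names for these genes, 11 of 43653 probes. The genes were chosen by their late against early differences in these samples, so those differences are given as a description with no test. The study biopsied 10 cows in both periods, once 42 to 86 days and once 343 to 436 days after parturition (means 60.1 and 388.9 days). All samples were taken 7 days after oestrus with biopsy forceps, from the horn ipsilateral to the ovary that bore the corpus luteum, and each of the 20 samples was hybridised to 1 array. The groups differ only in the time since parturition as far as the labels say, with no drug, diet or genotype named. A biopsy holds epithelium, stroma, vessels and blood-borne cells together, so fewer cells of a type and less RNA per cell cannot be told apart in any value below.

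Phagocytes such as macrophages take up dead cells and debris and break them down in lysosomes, acid compartments filled with hydrolases and bounded by heavily glycosylated membrane proteins. The acid is pumped in by the V-ATPase, a multi-subunit proton pump, and in human and mouse cells genes of the lysosome are switched on by the MiT/TFE family of transcription factors, to which MITF belongs. After calving the ruminant uterus sheds and remodels tissue during involution, a process in which phagocytes take part.

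Level means the log2 processed intensity of a probe minus the 75th percentile of its array. A level of 0 is thus the brightness at that percentile, and levels of different probes are not set against each other. Depth in the sequencing sense does not apply to arrays; their number limits the precision. Between 71.8% and 80.2% of spots per array were well above background. The epithelial markers (7 of 7 tested, list means 1.12 to 2.93) and the stromal fibroblast markers (9 of 9, 3.43 to 4.58) were well above background on every array. Some single markers lay below the 75th percentile, such as CLDN4 (early mean −2.51) and PDGFRB (early mean −3.16). Arrays sat 4 to a slide on 5 slides. Slides 1 and 2 held early samples, slides 4 and 5 late samples, and slide 3 alone held both periods (early cows 9 and 10, late cows 1 and 2), so that slide and period overlap for 16 of the 20 arrays.

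The probe sequences show what was measured, in 30-base stretches of the 60-base probes as the files print them, 5′ to 3′, with genome positions per the array annotation on build HGSC Btau_3.1. All 5 genes were found by symbol among the RefSeq genes of cattle. The first set gives the probes that carry the values of GPNMB, CD68 and MITF, with no bases marked.
GPNMB A_73_P250771: tcctgtgtcaatgaacatgcatgagctccc
CD68 A_73_106271: ggatgagggaaaagatgtttattaaatatg
MITF A_73_P032176: tggaagacatcctcatggacgatacccttt
The probes lie at chr4:33228129-33228188 on the plus strand (GPNMB), chr19:27817472-27817531 on the plus strand (CD68) and chr22:32354053-32354112 on the minus strand (MITF). The GPNMB and CD68 probes start at base 2353 and base 1225 of the transcripts the array was designed on, and the MITF probe at base 1238; which of these bases are coding was not annotated in the files.

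The next set shows probes that overlap, which decides how far they count as separate measurements. Capitals mark only the long runs that the 2 printed stretches of a gene share. Lower-case bases can still be shared, in short runs or with the part of the other probe not printed.
ATP6V0D2 A_73_P256081: taagagacgTTGCACTTCATGAATTGTACA
ATP6V0D2 A_73_112183: TTGCACTTCATGAATTGTACAcccactgga
ACP5 A_73_P443901: gatgtAACGACAAGAGGgTTCAGGAGACCT
ACP5 A_73_P288886: atgtcAACGACAAGAGGtTTCAGGAGACCT
The ATP6V0D2 probes, at chr14:75435957-75436016 and chr14:75435948-75436007 on the minus strand, share 51 of their 60 bases and are nearly 1 measurement. The 2 ACP5 stretches share 24 bases in the marked runs. Their probes are annotated at chr7:14363676-14363700 and chr7:14365129-14365396 on the minus strand, spans that differ from the probe length. The last set shows probes that hold the polyadenylation signal letters AATAAA, given in capitals. Whether these probes reach the end of the message was not annotated.
GPNMB A_73_115967: tcctttttccttcctgaaaAATAAAgtatg
ACP5 A_73_103981: gtcactgctgaatagacAATAAAggaaaaa
These letters occur as printed in 9.35% of the 43653 probes and on the reverse strand in 3.46%. The ACP5 probe lies at chr7:14363328-14363387 on the minus strand and represents that gene below; the second GPNMB probe lies at chr4:33228511-33228570 on the plus strand.

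GPNMB encodes a glycoprotein of lysosomes and melanosomes that macrophages and osteoclasts make in quantity, and in human and mouse cells it is a target of MITF. Its level in the early samples ran from 1.92 to 4.63 with a median of 2.80. In the late samples it ran from −0.76 to 0.91 with a median of −0.13. Every early array lay above every late array, and the early sample of cow 9 stood highest. The mean was 2.89 ± 0.71 early and −0.04 ± 0.64 late (SD, n = 10), a difference of −2.94 ± 0.30 (SE), or 7.67-fold lower late. All 10 cows had the lower level late, by between −1.71 (cow 6) and −5.26 (cow 9), and only 1 of the 19442 genes had a larger drop. A second GPNMB probe differed by −2.79 ± 0.31 and followed the first over the 20 arrays (r = 0.94 after period means were removed).

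Of all genes tested with limma, 0.772% were lower late, 0.54% were higher and 1.31% passed in either direction at an adjusted p of 0.05. For 0.0676% of genes the 10 late arrays all lay below the 10 early arrays, for 0.0572% all above them, and 1.67% were lower in all 10 cows. GPNMB, CD68 and ATP6V0D2 belong to the genes lower in 10 of 10 cows, and GPNMB and ATP6V0D2 to those without overlap. Since the contrast chose the members, nothing is read from these counts. The median change of all genes was 0.02.

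CD68 encodes macrosialin, a glycoprotein of the lysosome and endosome membrane used as a marker of macrophages. Its level ran from −1.92 to 0.58 early (median −1.15) and from −3.41 to −1.36 late (median −3.03). The ranges overlapped, with the late sample of cow 3 the highest late one and the early sample of cow 5 the lowest early one. The mean went from −1.01 ± 0.78 to −2.80 ± 0.64 (SD, n = 10), a difference of −1.79 ± 0.22 (SE), or 3.47-fold. All 10 cows were lower late, from −0.83 in cow 3 to −3.01 in cow 9. A second CD68 probe at chr19:27817263-27817322 gave a smaller difference of −1.26 ± 0.18 in the same direction in all 10 cows (r between the probes 0.85).

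ATP6V0D2 encodes the d2 subunit of the membrane sector of the V-ATPase, the form used by osteoclasts and macrophages in mouse. Its level ran from −5.20 to −2.18 early (median −4.60) and from −7.33 to −6.00 late (median −6.37). The groups did not overlap, and the early sample of cow 9 lay far above the other early samples. The probe was dim, and 10 early but only 8 late arrays read it well above background. The difference was −2.10 ± 0.22 (SE), 4.29-fold, from −4.42 ± 0.87 to −6.52 ± 0.46 (SD, n = 10), with all 10 cows lower by −1.35 to −4.00. The overlapping probe gave −2.22 ± 0.21 and was well above background on 5 late arrays. With normexp background correction at an offset of 50 the ATP6V0D2 difference was −0.89.

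ACP5 encodes tartrate-resistant acid phosphatase, an enzyme of osteoclast and macrophage lysosomes. In the pig the same enzyme is uteroferrin, an iron-carrying protein that uterine glands secrete under progesterone, and the array describes the target of its ACP5 probes as similar to uteroferrin. The level ran from 3.83 to 6.41 early (median 5.81) and from 4.07 to 6.38 late (median 5.71). The ranges covered each other almost wholly. The mean was 5.64 ± 0.80 early and 5.57 ± 0.73 late (SD, n = 10), a difference of −0.06 ± 0.29 (SE). Cows went both ways: 6 of 10 were lower, cow 6 by −2.16, while cow 10 was higher by 1.78. The other 3 ACP5 probes gave −0.26 ± 0.37, −0.21 ± 0.34 and −0.26 ± 0.34, with 4 or 5 of 10 cows lower.

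MITF is the transcription factor of the group. Its level ran from −2.35 to −0.58 early (median −1.35) and from −2.92 to −1.07 late (median −1.39), with wide overlap. The difference was −0.28 ± 0.15 (SE), from −1.38 ± 0.44 to −1.66 ± 0.56 (SD, n = 10), and 8 of 10 cows were lower. Cow 9 contributed most, at −1.39, and without it the difference was −0.15. A probe outside the selection that the array describes as an MITF isoform differed by −0.18 ± 0.13 and followed the first (r = 0.92).

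**Figure D1:**
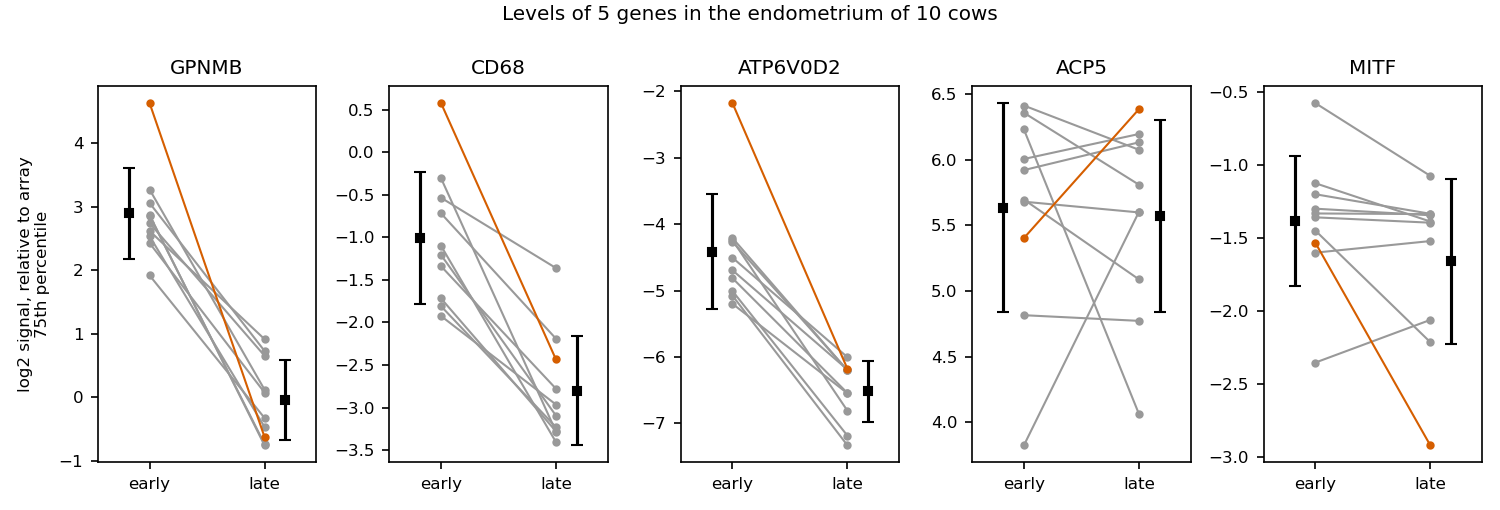
Level of each of the 5 genes (log2 processed intensity minus the array's 75th percentile) in the early and late sample of each of the 10 cows, joined by a line for each cow, with cow 9 in orange and squares with bars for mean ± SD. The GPNMB, CD68 and ATP6V0D2 lines all slope down, and the ACP5 and MITF lines run both ways.

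Cow 9 was the most extreme for the 3 genes that were lower in every cow. Its early biopsy had the highest stromal fibroblast mean (4.58) and the highest smooth muscle mean (4.17) of the 10 early samples, the lowest epithelial mean (1.12), and the second highest macrophage mean (0.16). The part of this makeup in the gene levels was not tested. Without cow 9 the differences were −2.68 for GPNMB, −1.66 for CD68 and −1.89 for ATP6V0D2. On slide 3 alone, the 2 late arrays against the 2 early ones, they were −3.59, −2.99 and −3.38, and without the early sample of cow 9 they were −2.71, −2.15 and −2.33. With slide as a block beside cow the GPNMB difference was −2.60 ± 0.85 and that of CD68 −1.81 ± 1.01 (SE), and ATP6V0D2 gave −3.10. The ACP5 difference was 0.70 ± 0.81 with the slide block and 1.55 on slide 3. Slide 3 compares different cows: the ACP5 levels were 6.13 and 6.20 in late cows 1 and 2, and 5.40 and 3.83 in early cows 9 and 10. Against their own early samples, on slide 1, cows 1 and 2 were higher late by 0.21 and 0.19. The parts of cow and slide in the slide 3 value were not tested.

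**Figure D2:**
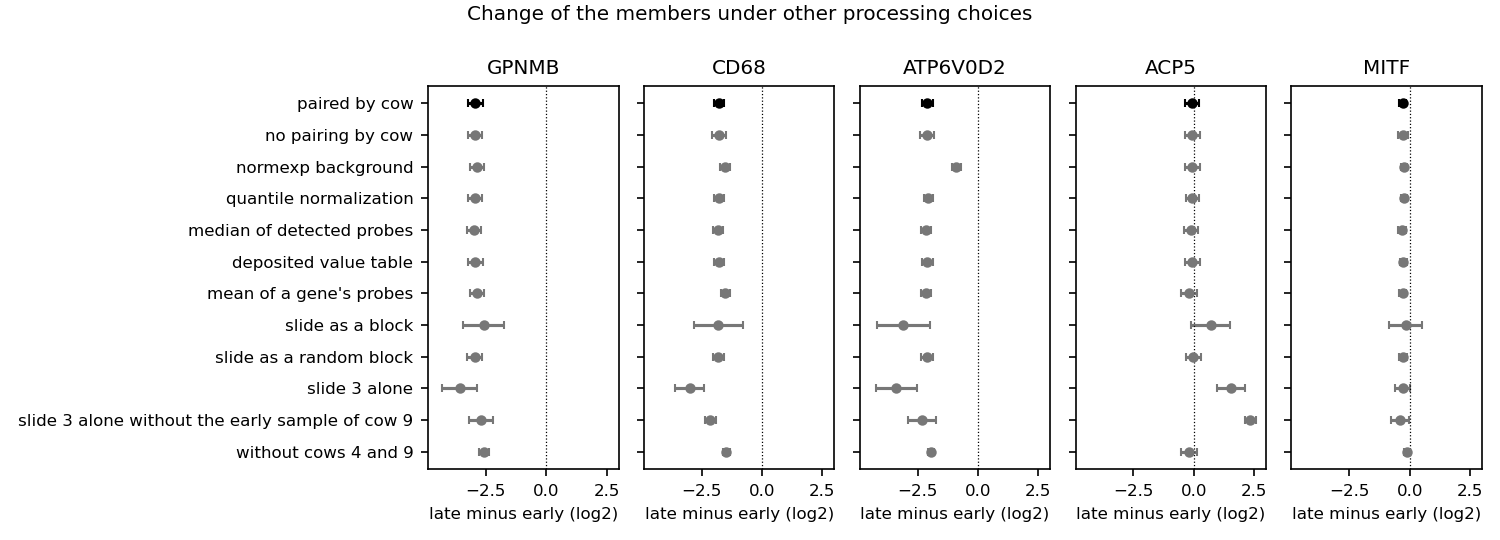
Late minus early difference (log2, point) with its SE (bar) of each of the 5 genes under a selection of the processing settings, the paired comparison in black. GPNMB, CD68 and ATP6V0D2 stay below 0 in every setting drawn, while ACP5 lies on both sides of 0.

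The other lysosome and phagocyte genes were read from 10 pathway lists, chosen with earlier results of these data known. Of their 229 genes, 206 were tested beside the members. By limma 14 fell (6.80%, against 0.772% of all genes) and 1 rose, and 67.48% had a negative difference, against 47.12% of all genes. The median difference was −0.13. In fits that left out 1 cow, between 0 and 9 list genes fell, with 0 when cow 1 was left out. Over all 19442 genes 27 to 110 fell in these fits (32 without cow 1), against 150 with all cows. With slide as a block no list gene passed in limma (5 had an unadjusted p under 0.05). No gene of all 19438 tested passed there either. With slide as a random block 1 list gene fell, and 29 of all genes fell.

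Beside ATP6V0D2, which was chosen on the contrast and carries no test, 24 other V-ATPase subunits were tested. Limma called none of these 24, with 4 at an unadjusted p under 0.05 and a median difference of 0.05. ATP6V0D1, the widely expressed counterpart of ATP6V0D2, differed by −0.29 ± 0.09 (SE; adjusted p = 0.112), and ATP6V1H, a subunit of the cytosolic sector, by −0.18 ± 0.07 (adjusted p = 0.149). TCIRG1, the a3 subunit of the osteoclast pump, differed by 0.07.

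Of 50 lysosomal hydrolases and activators, 6 fell and none rose, with a median of −0.28 and 42 below 0. CTSC, a protease that activates leukocyte serine proteases, fell by 1.01 on the log2 scale (adjusted p = 0.0424). CTSD, an aspartic protease, fell by 0.71 (adjusted p = 0.0458) and CTSH, an aminopeptidase, fell by 0.63 (adjusted p = 0.0392). HEXA, PSAP and MAN2B1, which degrade or help degrade glycolipids and glycoproteins, were the other genes that fell (named after their values were seen), by 0.71, 0.58 and 0.40. Each of these 6 calls held in at most 2 of the 10 fits without 1 cow, and with slide as a block the HEXA and PSAP differences were 0.44 and 0.15.

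Of 28 lysosomal membrane proteins tested, 2 fell, and the median was −0.03. LAPTM5, a leukocyte lysosomal protein, fell by 0.81 (adjusted p = 0.0393). SLC11A1, the metal ion transporter of phagosomes, passed at −2.28 (SE 0.44, adjusted p = 0.0382), but its probe cleared background on 9 early arrays and on 4 late ones, so the size is not well measured. The SLC11A1 difference was −0.80 with normexp and 1.39 with slide as a block, and the call held in 2 of the 10 fits without 1 cow; that of LAPTM5 held in 1.

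The factors that control the lysosome did not pass. Of 19 MiT/TFE factors and nutrient-sensing regulators limma called none, with 6 at an unadjusted p under 0.05, and the median was 0.04. TFEC, the family member of macrophages, differed by −1.11 ± 0.31 (SE, adjusted p = 0.0858) and was lower in 9 of 10 cows. TFEB and TFE3, its widely expressed relatives, differed by −0.04 and −0.13, and the kinase MTOR by −0.25 (adjusted p = 0.102). Of 23 autophagy genes limma called none, with 5 at an unadjusted p under 0.05 and a median of −0.06; the cargo receptor NBR1 differed by −0.22 (adjusted p = 0.102) and the tethering protein VPS18 by −0.26 (adjusted p = 0.11).

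Of 17 osteoclast and giant cell genes tested, TYROBP fell by 1.07 (SE 0.18, adjusted p = 0.031) and no other passed, with a median of −0.32. TYROBP is the adaptor of several myeloid receptors. CTSK, the collagen-degrading protease of osteoclasts, differed by −0.44 (adjusted p = 0.129). Of 23 lipid-associated phagocyte genes 5 fell, with a median of −0.24. These were the scavenger receptors MSR1 (−0.85, adjusted p = 0.0181) and CD36 (−1.22, adjusted p = 0.0327), the cholesterol exporter ABCA1 (−0.71, adjusted p = 0.0327), the lipid carrier APOE (−0.93, adjusted p = 0.0466) and CTSD. MSR1 held in 9 of the 10 fits without 1 cow, CD36 and ABCA1 in 3 and APOE in none, and the CD36 difference was 0.30 with slide as a block. ABCA1 was at −0.41 with normexp.

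Of 21 apoptotic cell uptake genes 2 fell, CD36 and the engulfment receptor MEGF10 (−0.82, adjusted p = 0.0367, held in 2 of the 10 fits without 1 cow), and 20 were below 0 with a median of −0.32. None of 10 reported GPNMB partners passed in limma, with 3 at an unadjusted p under 0.05 and a median of −0.17. Among them CD44, a hyaluronan receptor, differed by −0.73 (adjusted p = 0.103) and the integrin ITGAV by −0.49 (adjusted p = 0.128). GPNMB and MITF are also pigment cell genes, and 7 of 16 melanocyte genes could be tested. TYRP1, a melanosome enzyme, rose by 1.66 (SE 0.28, adjusted p = 0.0327) in 10 of 10 cows. It was the only pathway gene that rose, but the call held in 7 of the 10 fits without 1 cow and the difference was 0.99 with normexp, 0.15 with slide as a block and −1.48 on slide 3 alone. PMEL, the melanosome fibril protein related to GPNMB, differed by −0.21, and TYR, DCT, MLANA and SOX10 did not pass the filter on dim probes.

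**Figure D3:**
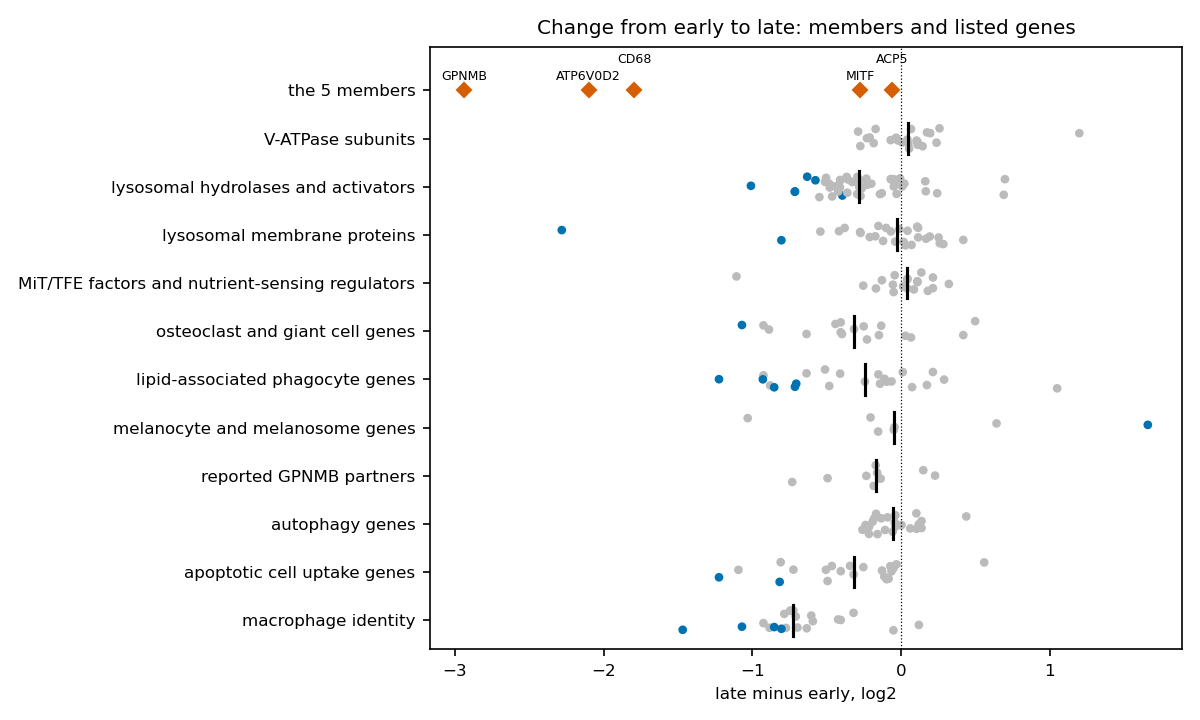
Late minus early difference (log2) of the 5 members (diamonds) and of every tested gene of the pathway lists and the macrophage identity list (1 point a gene, blue where limma called it at an adjusted p of 0.05, grey otherwise), with a bar at each list's median. The V-ATPase median is 0.05 and the macrophage identity median −0.72.

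Of 21 macrophage identity genes tested, 4 fell and none rose: VSIG4, a complement receptor of resident macrophages (−1.47 ± 0.16 SE, adjusted p = 0.00411), MSR1, TYROBP and LAPTM5. Their median was −0.72, 20 were below 0, and the mean over the list was lower in 10 of 10 cows, from −1.27 to 0.41 early and from −1.64 to −0.10 late. CD163, a haemoglobin scavenger receptor, differed by 0.12. Without 1 cow VSIG4 held in 10 of 10 fits, MSR1 in 9, TYROBP in 6 and LAPTM5 in 1. With a random slide term VSIG4 and MSR1 passed (adjusted p = 0.00798 and 0.0364), and TYROBP and LAPTM5 did not (adjusted p = 0.0597 and 0.0719). No gene of the pan-leukocyte (8 tested), neutrophil (6), T cell (8), B cell (5), mast cell (5), endothelium (5), smooth muscle (5), red cell (4), epithelium (7) or stromal fibroblast (9) lists passed in limma (17 of the 62 at an unadjusted p under 0.05). Several of these lists lay to 1 side of 0: the differences were negative for 8 of 8 pan-leukocyte genes (median −0.28), 5 of 5 mast cell genes (median −0.54, list mean lower in 9 of 10 cows), 5 of 5 B cell genes (median −0.13) and 9 of 9 stromal fibroblast genes (median −0.25). They were positive for 6 of 7 epithelial genes (median 0.26). The part of the macrophage genes and of these other lists in the differences of the members was not tested.

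Set against the macrophage genes of the same cow, the drop of GPNMB was larger by −2.27 ± 1.04 (SD, n = 10), with all 10 cows below 0. For CD68 the excess was −1.12 ± 0.51, in 10 of 10 cows, and for ATP6V0D2 −1.43 ± 1.06, in 9 of 10. For ACP5 and MITF it was 0.61 ± 1.24 and 0.40 ± 0.63, with 4 and 2 of 10 cows below 0. These values use the contrast that chose the members and carry no test.

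The selection of the genes named covariation over all arrays beside the late against early contrast. The correlations inside a period therefore describe these samples, and their p-values are not independent evidence. Among the 10 early samples GPNMB was correlated with CD68 (r = 0.87, rho = 0.82, permutation p = 0.00119, 0.02 after adjustment over 20 relations). GPNMB was likewise correlated with ATP6V0D2 (r = 0.92, rho = 0.79, permutation p = 0.002, adjusted 0.02). Leaving out the 2 samples farthest from the median, r was 0.74 and 0.67. Much rests on cow 9, which was highest for all 3: without it r was 0.72 and 0.67, each with an adjusted permutation p of 0.444. Without cow 4 r was 0.92 and 0.97 (adjusted permutation p = 0.0086 and 0.0022). Without cows 4 and 9 r was 0.78 and 0.88 (adjusted permutation p = 0.141 and 0.0266). By rank over the 10 early samples the adjusted permutation p was 0.0565 for both pairs. For GPNMB with CD68 the adjusted permutation p was also above 0.05 without cow 3 (0.0736), cow 5 (0.0515) or cow 8 (0.0555). The same held for GPNMB with ATP6V0D2 (adjusted permutation p = 0.0737, 0.0515 and 0.0555). With slide means removed r was 0.83 and 0.87 (adjusted permutation p = 0.013 for both). Of the early samples slide 3 held only cows 9 and 10, so this step gave them deviations of equal size and opposite sign. The permutation did not allow for the removed means, so p-values after this step can be too small. The same step moved the early ACP5 relations: ATP6V0D2 with ACP5 went from r = −0.06 to 0.86 (adjusted permutation p = 0.013), and GPNMB with ACP5 from −0.11 to 0.58 (adjusted permutation p = 0.2). CD68 with ATP6V0D2 gave r = 0.73 (adjusted permutation p = 0.16). This value turned on single cows: r was 0.92 without cow 4 and 0.27 without cow 9 (adjusted permutation p = 0.0086 and 0.939).

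In the late samples no pair passed. GPNMB with CD68 had r = 0.33 and rho = 0.61 (adjusted permutation p = 0.796 for r). ACP5 with MITF had r = −0.61 and rho = −0.82 (adjusted permutation p = 0.294 and 0.0565). Whether the early and late correlations differ was not tested.

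**Figure D4:**
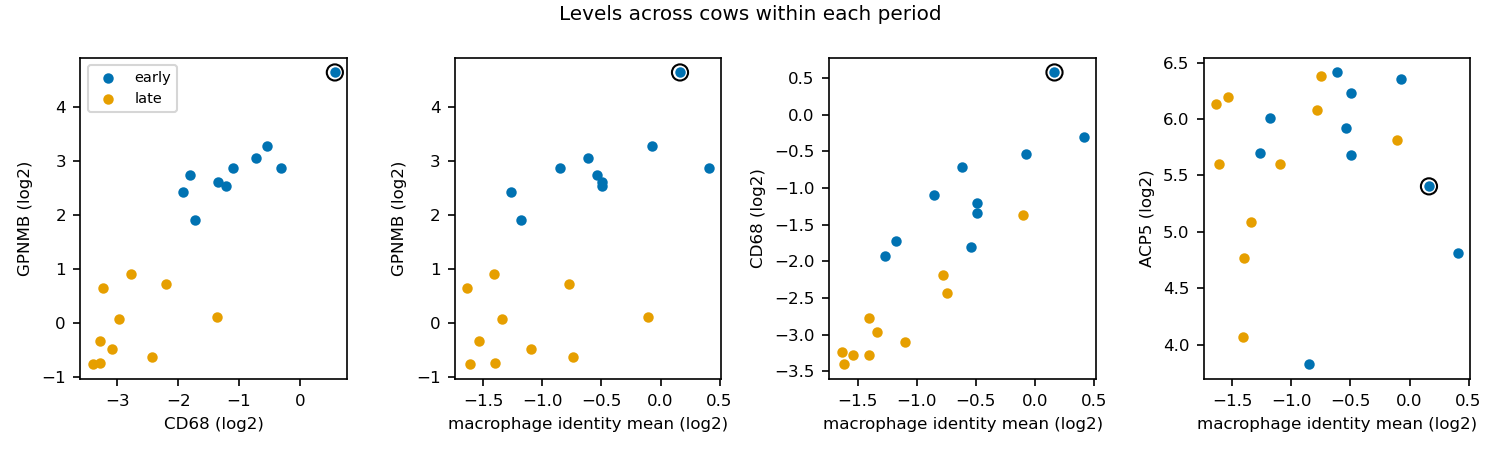
Levels (log2 processed intensity minus the array's 75th percentile) of GPNMB against CD68, and of GPNMB, CD68 and ACP5 against the mean of the macrophage identity genes, 1 point a sample, early samples in blue and late ones in orange, with the early sample of cow 9 circled. The circled sample is highest for GPNMB (4.63) and CD68 (0.58), and CD68 follows the macrophage mean in both periods.

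Each member was then set against the mean of the 21 macrophage genes within a period. CD68 had r = 0.82 and rho = 0.76 early (permutation p = 0.00312, adjusted 0.0156 over 10 relations) and r = 0.95 and rho = 0.79 late (adjusted permutation p = 0.0042). For CD68 r was 0.79 and 0.84 without the 2 farthest samples, and by rank the early and the late relation both had an adjusted permutation p of 0.0715. The early relation did not pass without cow 2 or without cow 5 (adjusted permutation p = 0.0517 and 0.0685). GPNMB had r = 0.66 early (adjusted permutation p = 0.104) and 0.07 late (0.847), and ATP6V0D2 had 0.40 and 0.20. Their early values turned on single cows: without the 2 farthest samples r was 0.86 for GPNMB and 0.74 for ATP6V0D2. Without cow 4 it was 0.83 for GPNMB, 0.77 for ATP6V0D2 and 0.82 for CD68, each with an adjusted permutation p of 0.0126, and without cow 9 it was 0.03 for ATP6V0D2. The early order of these 3 genes is therefore not settled. ACP5 had −0.09 early and 0.28 late, and MITF 0.55 and −0.58. No member passed against any of the 10 other marker lists (100 relations, smallest adjusted permutation p = 0.181), a comparison added after the data were seen. The macrophage relations were adjusted over 10 relations and these over 100, so passing cannot be compared between them. Early CD68 had r = 0.87 with the smooth muscle mean and 0.80 with the stromal fibroblast mean. Without the 2 farthest samples these were 0.50 and 0.19. Late CD68 had −0.13 and −0.37 with these lists, and 0.85 with the pan-leukocyte mean. Early GPNMB had 0.78 with smooth muscle and 0.73 with stromal fibroblast genes, and 0.33 and 0.18 without the 2 farthest samples.

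The genes whose levels followed each member most closely, over 20 arrays with period means removed, are a description. Those of GPNMB were STBD1 (r = 0.87), TMEM250 (0.86), TRPV2 (0.85), TC367211, DV879056, TMEM108, PPM1E, SMOC2, BGN and TCF4 (0.80 to 0.84), and none of 19235 genes exceeded 0.9. STBD1 binds glycogen, TRPV2 is a cation channel of immune cells, and SMOC2 and BGN are matrix proteins. Without the early sample of cow 9, STBD1 had r = 0.79. CD68 was followed by CD44 (0.92), LAPTM5 (0.91) and the leukocyte adaptor DOK2 (0.91). ATP6V0D2 was followed by LRTOMT (0.85), VSTM1 (0.77) and the iron exporter SLC40A1 (0.77), for which r was 0.52, 0.50 and 0.35 without the early sample of cow 9. ACP5 was followed by CB454695 (0.94), DV791583 (0.90) and ENDOG (0.89), and MITF by ENSBTAT00000053891, CARM1 and PTPN11 (0.95 to 0.96).

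MITF had 170 genes with r over 0.9, against 5 for CD68 and 2 for ACP5. Its median r with the 21 macrophage genes was −0.04, against 0.78 for CD68, 0.37 for GPNMB, 0.28 for ATP6V0D2 and 0.08 for ACP5. The first component of the period-centred data held 25.4% of the variance. It had |r| = 0.53 with MITF, 0.50 with CD68 and ACP5, 0.37 with GPNMB and 0.05 with ATP6V0D2. Most of its weight lay on the early sample of cow 4 (0.75), and the next in size was −0.31 (early sample of cow 2). These correlations thus rest largely on 1 array.

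The early and the late level of a cow were set against each other for each member. Between the periods GPNMB had r = −0.19, CD68 0.45, ATP6V0D2 0.46 and ACP5 0.08. MITF kept its rank across cows by rho = 0.82 (adjusted permutation p = 0.0309 over 5 members), with r = 0.55 (adjusted 0.315). No cow had both its arrays on 1 slide.

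No gene's level passed a test for a trend with the day after parturition inside a period (limma, 0.0% of 19442 genes called in either period, 1099 genes at an unadjusted p under 0.05 early and 268 late). Over the early period, the slope per 10 days was −0.29 ± 0.14 for GPNMB (SE, unadjusted p = 0.0734, adjusted 0.91) and −0.38 ± 0.14 for CD68 (unadjusted p = 0.0235, adjusted 0.84). It was −0.26 for ATP6V0D2, 0.05 for ACP5 and −0.11 for MITF.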

How the data were processed

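Total RNA of 20 endometrial biopsies was labelled with Cy3 and hybridised to 1-colour Agilent 4x44K bovine arrays, per the labels' protocols. The deposited intensity values are processed signals of each spot, background-subtracted by Agilent Feature Extraction 10.5.1.1, per the file headers. The authors also deposited a value table; set against the scanner values (r of 1.00 on every array, column medians −0.153 to 0.0509), its deposited values are on a log2 scale, relative to the 75th percentile of the array and centred on the median of each probe.

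From the 43803 non-control spots, those of the same probe were averaged (43653 probes), and log2 intensity minus the 75th percentile of the array was taken. Probes well above background on at least 8 of 20 arrays were kept (33759 probes, 19442 genes). Names came from RefSeq through accession (20595 probes), symbol (10745), synonym (376) or gene number (1408), and 10529 probes kept the name on the array. A member was represented by the probe its selection named, otherwise by its probe of highest mean; other genes by their probe of highest mean. Late was compared with early by limma 3.58.1 in R 4.3.3, with cow as a fixed block and Benjamini-Hochberg adjustment over all genes, two-sided, at 0.05. The members and the gene lists were chosen with earlier results of these data known. Genes named in each list are the 3 of smallest p among those called, or the 2 of smallest p where none was. TCIRG1, HEXA, PSAP, MAN2B1, TFEB, TFE3, CTSK, APOE, PMEL and CD163 lie outside this rule and were named after their values were seen.

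Same-numbered samples come from the same animal according to the series design text and the titles; late source names use different cow numbers. Deviations of same-numbered samples from their group means had a median r of 0.418 (−0.11 to 0.761, above 0.1 in 8 of 10 cows), against −0.029 between cows. Correlations were tested over 10 cows with 100000 permutations, two-sided (numpy 2.4.6, with ranks from scipy 1.17.1). On simulated data for late against early with 19236 genes, the fit recovered 36%, 74%, 94% and 100% of genes changed by 0.5, 1, 2 and 3 on the log2 scale. The alternatives were other pairing, background correction, normalization, filters, probe choice, slide terms, the deposited value table, and leaving out cows.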

Additional observations from a re-analysis of the deposited data

Results flagged for a closer look

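In 12 groups of 10 samples, 2 held a sample far from the others, by a threshold that chance passes in about 1 group in 20. Both were the early sample of cow 9, in 2 genes correlated among the early samples (r = 0.92). They are therefore not separate cases, and their number cannot be set against that rate. The GPNMB level of the early sample of cow 9 was 4.63, and its gap to the next sample was 0.50 of the range of the early group. The ATP6V0D2 level of the same sample was −2.18, with a gap of 0.67 of the range.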

How the results depend on the processing

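The differences of GPNMB, CD68 and MITF kept their sign in every alternative run, as did that of ATP6V0D2, which has no value where probes had to be well above background on all 20 arrays. Leaving out 1 cow gave −3.08 to −2.68 for GPNMB, −1.90 to −1.66 for CD68, −2.18 to −1.89 for ATP6V0D2, −0.27 to 0.17 for ACP5 and −0.34 to −0.15 for MITF. Larger shifts were −0.89 for ATP6V0D2 with normexp, −3.10 with slide as a block and −3.38 on slide 3 alone, −2.99 for CD68 on slide 3, and 1.55 for ACP5 on slide 3 (2.34 without the early sample of cow 9, an alternative chosen after seeing the data). The cause was not tested.

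Pairing changed the count of pathway genes that fell from 14 to 7 with no replicate block and to 26 with cow as a random block, and the count that rose from 1 to 0 without the block. The count that fell was 4 with no filter, 1 with slide as a random block, and 0 with slide as a block, on slide 3, and on slide 3 without the early sample of cow 9; unadjusted limma p under 0.05 were 5, 27 and 30. Leaving out 1 cow gave 0 to 9. The count that rose was 0 in those 4 slide settings, with all 20 arrays above background and without cows 4 and 9, and 0 to 1 leaving out 1 cow. Over all genes 150 fell in the main fit, 63 with no filter, 29 with slide as a random block, and 27 to 110 leaving out 1 cow. None fell with slide as a block or on slide 3. Of the 255 main calls over all genes, 41.2% were higher late. This share was 53.1% of 271 with normexp, 51.6% of 349 with quantile normalization and 23.5% of 226 with scaling to the median.

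The early correlation of GPNMB with CD68 was 0.84 with quantile normalization (adjusted permutation p = 0.0718) and 0.78 without cows 4 and 9 (0.141). It was 0.72 to 0.92 leaving out 1 cow, where 4 of 10 fits did not pass (without cow 3, 5, 8 or 9). GPNMB with ATP6V0D2 did not pass in the same 4 fits. That correlation was 0.89 with quantile normalization (adjusted permutation p = 0.0762) and 0.88 without cows 4 and 9 (0.0266). CD68 with the macrophage genes was 0.70 early without cows 4 and 9 (0.172) and 0.78 to 0.87 leaving out 1 cow, where 2 of 10 did not pass (without cow 2 or 5). Slide is largely bound to period and cannot be told apart from it; with 10 cows, a drop of 0.5 is often missed, and ATP6V0D2 is near background late.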
